A study of Mus musculus with 6 samples.

Results

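Obp2a, Selenbp2, Selenbp1 and Moxd1 are 4 of the 21528 genes listed in the liver RNA-Seq of WT and TRIM24C52/55A mice. Obp2a, Selenbp2 and Moxd1 were chosen by their FPKM in WT against TRIM24C52/55A livers, where they are among the strongest differences, and Selenbp1 because it is the paralog of Selenbp2. The levels that follow are the same measurements that chose the genes, so their differences are given as a description with no test. RNA from the liver of 3 WT and 3 TRIM24C52/55A mice was sequenced, 1 library per mouse, and each gene's level is its FPKM (fragments per kilobase of transcript, relative to the library's mapped fragments), a scale that is per length. All 6 mice were C57BL/6, 5 months old and on a high-fat diet labelled as 60% fat for 3 months. WT mice carried unaltered TRIM24. The TRIM24C52/55A mice carried a CRISPR/Cas9 knock-in that replaces Cys52 and Cys55 in the RING (E3-ligase) domain of the endogenous protein by alanine in every tissue, so that the liver RNA is not that of a liver-restricted mutant. Per the study's methods, homozygous knock-in mice and WT littermates came from matings of heterozygotes, and the knock-in was made on a C57Bl/6J background. No chow-fed liver was analysed here.

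Of the 21528 genes, 12225 had a mean of at least 0.5 FPKM over the 6 libraries and were tested. All 4 genes passed that filter, Moxd1 through the TRIM24C52/55A libraries alone and Obp2a almost entirely through them. The libraries listed 17709 to 17984 genes each. From the steps between low FPKM values, 1 fragment per kilobase of transcript was worth an estimated 0.0606 to 0.0637 FPKM. The estimate was a median over the same fixed range of low values in every library, so it cannot show that depths were equal. The fragment counts given below rest on it. Spearman correlations across genes, which are not independent replicates, were 0.976 to 0.988 within genotypes and 0.969 to 0.976 between them. The hepatocyte genes Apoa1 and Ttr were at 6182 ± 545 and 5426 ± 447 FPKM in WT and 6906 ± 1121 and 4782 ± 272 FPKM in TRIM24C52/55A livers (SD, n = 3 each). Alb, the albumin gene, and Tf, the transferrin gene, have no row in any of the 6 tables used here, so a missing row does not by itself mean a low level. The adipocyte genes Adipoq, Plin1 and Lep stood at 4.55, 3.32 and 3.98 FPKM in TRIM24C52/55A replicate 2 and at or below 0.127 FPKM in the other 5 libraries, so values without that library are given where they matter. Trim24 itself was at 5.45 ± 0.562 FPKM in WT and 6.31 ± 2.08 FPKM in TRIM24C52/55A livers (SD, n = 3 each; adjusted p = 0.713 by limma), but a change of 2 codons need not alter the RNA level, so this does not check the genotype. The labels do not give the sex of these mice. The Y-linked genes Ddx3y, Eif2s3y, Kdm5d and Uty were present in all 6 libraries, and Xist was at or below 0.00403 FPKM. By these genes the mice of both genotypes were male. The study also describes the 5-month-old mice of its other liver measurements on this diet as male.

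Obp2a encodes an odorant-binding protein of the lipocalin family, small secreted proteins that carry hydrophobic ligands in a barrel-shaped pocket, a family to which the major urinary proteins of the mouse liver also belong. Selenbp1 and Selenbp2 encode cytosolic selenium-binding proteins. SELENBP1 is a methanethiol oxidase, which turns methanethiol into formaldehyde, hydrogen peroxide and hydrogen sulfide, and it binds selenium without being a selenoprotein with selenocysteine. Moxd1 encodes a monooxygenase-like protein of the family of dopamine beta-hydroxylase, whose enzymes use copper. In mouse liver many genes differ between males and females because growth hormone is secreted in pulses in males and more evenly in females, and the signal reaches the hepatocyte nucleus through the growth hormone receptor, JAK2 and STAT5B.

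The sequences just upstream of the 4 genes are shown because they let the paralogs be compared and hold most of the few short motifs found. They are from RefSeq (GRCm38.p6), on the plus strand, and each stops at the base before the GENCODE start of the gene. Capitals mark TATAAA in Obp2a, the bases that have no match in the alignment of Selenbp1 with Selenbp2 in both of these genes, and a TTCNNNGAA match in Moxd1.
Obp2a, chr2:25699824-25700042: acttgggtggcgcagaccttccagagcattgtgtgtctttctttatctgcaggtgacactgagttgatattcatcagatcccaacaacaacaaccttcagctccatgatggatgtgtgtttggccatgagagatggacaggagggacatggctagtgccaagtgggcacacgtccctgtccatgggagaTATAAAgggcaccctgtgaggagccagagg
Selenbp2, chr3:94693323-94693555: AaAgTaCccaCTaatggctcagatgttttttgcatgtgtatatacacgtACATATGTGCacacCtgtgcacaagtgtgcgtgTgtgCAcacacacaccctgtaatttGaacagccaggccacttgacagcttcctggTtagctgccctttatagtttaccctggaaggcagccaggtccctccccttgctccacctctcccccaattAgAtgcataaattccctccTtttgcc
Selenbp1, chr3:94932833-94933055: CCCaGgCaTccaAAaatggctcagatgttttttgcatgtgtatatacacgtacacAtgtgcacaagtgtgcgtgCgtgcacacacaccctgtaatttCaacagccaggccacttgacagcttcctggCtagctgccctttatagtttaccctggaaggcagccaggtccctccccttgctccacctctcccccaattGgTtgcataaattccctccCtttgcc
Moxd1, chr10:24223267-24223516: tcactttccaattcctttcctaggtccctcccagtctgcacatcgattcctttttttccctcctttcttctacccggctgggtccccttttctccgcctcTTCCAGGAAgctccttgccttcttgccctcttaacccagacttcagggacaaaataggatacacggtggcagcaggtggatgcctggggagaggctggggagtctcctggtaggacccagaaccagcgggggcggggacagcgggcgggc

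The upstream stretches of Selenbp1 and Selenbp2 were nearly the same. Of 221 aligned bases, 208 (94.1%) were identical and 13 were mismatched. Motifs were searched on both strands in the 250 bases before and 50 bases after each RefSeq start. TATAAA, the core of the TATA box, was present in 14.2% of 27025 promoters and in 3 of the 4 genes. In Obp2a it lies on the plus strand, 30 bases before the GENCODE start. In Selenbp1 and Selenbp2 it is on the minus strand, read as TTTATA, beginning 113 and 103 bases before the RefSeq starts. TTCNNNGAA, the spacing bound by STAT proteins, was in 8.47% of all promoters and among the 4 genes in Moxd1 alone, as TTCCAGGAA beginning 150 bases before its start. The nuclear receptor half-site AGGTCA was in 16% of all promoters and only in Obp2a of the 4, as TGACCT 17 bases before the RefSeq start and so downstream of the stretch printed. GTTAAT, a half-site of HNF1, was in 7.2% of all promoters and in none of the 4. These are matches of letters within 1 window and say nothing of binding. The GC content of the 250 bases before the RefSeq start was 52.4% for Obp2a, 49.2% for Selenbp2, 51.6% for Selenbp1 and 58.4% for Moxd1, against a median of 52% over all promoters.

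Obp2a (ENSMUSG00000062061) lies on the plus strand at chr2:25700043-25703326 (GRCm38, GENCODE M21), with 1 annotated transcript of 744 bases in 7 exons. It went from the edge of detection in WT livers to an abundant RNA in TRIM24C52/55A livers. Its level was 0.0945, 0.734 and 1.79 FPKM in WT replicates 1, 2 and 3, and 223, 127 and 168 FPKM in TRIM24C52/55A replicates 1, 2 and 3. Every knock-in library stood far above every WT library, and the groups did not overlap. Across all genes tested, 6.31% had higher groups without overlap in TRIM24C52/55A and 22.5% lower ones, and since these genotypes chose the gene nothing is read from that. The means were 0.872 ± 0.854 FPKM in WT and 173 ± 48.2 FPKM in TRIM24C52/55A livers (SD, n = 3 each), a ratio of means of 198. The ratio was 417 without WT replicate 3, and between 137 and 225 when any other library was left out. On the log2(FPKM + 1) scale, which understates the change of a gene this low, the fold change was 6.60 (SE 0.32). This ranked 1 of the 12225 genes tested, just before Cfap53, a ciliary protein gene, at 6.47. By mean level Obp2a ranked 11145 of all listed genes in WT and 403 in TRIM24C52/55A livers.

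The low WT level of Obp2a rests on few fragments. With 1 fragment worth about 0.0826 FPKM in WT replicate 1 for a transcript of this length, the 3 WT values correspond to an estimated 1, 9 and 21 fragments, and the TRIM24C52/55A values to an estimated 2621, 1521 and 1965. The coefficient of variation was 98.0% in WT and 27.9% in TRIM24C52/55A livers. With a pseudocount of 0.1 in place of 1, the log2 fold change was 7.97. The rank was 2 with that pseudocount, as TPM, without WT replicate 1 and without TRIM24C52/55A replicate 1, and 1 under the other 10 alternatives. Without TRIM24C52/55A replicate 2 the log2 fold change was 6.81. The neighbouring lipocalin gene Obp2b shares 14.0% of the 31-base stretches of Obp2a and 4.81% of its 100-base stretches. Obp2b was listed in TRIM24C52/55A replicate 1 alone, at 0.0943 FPKM.

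**Figure D1:**
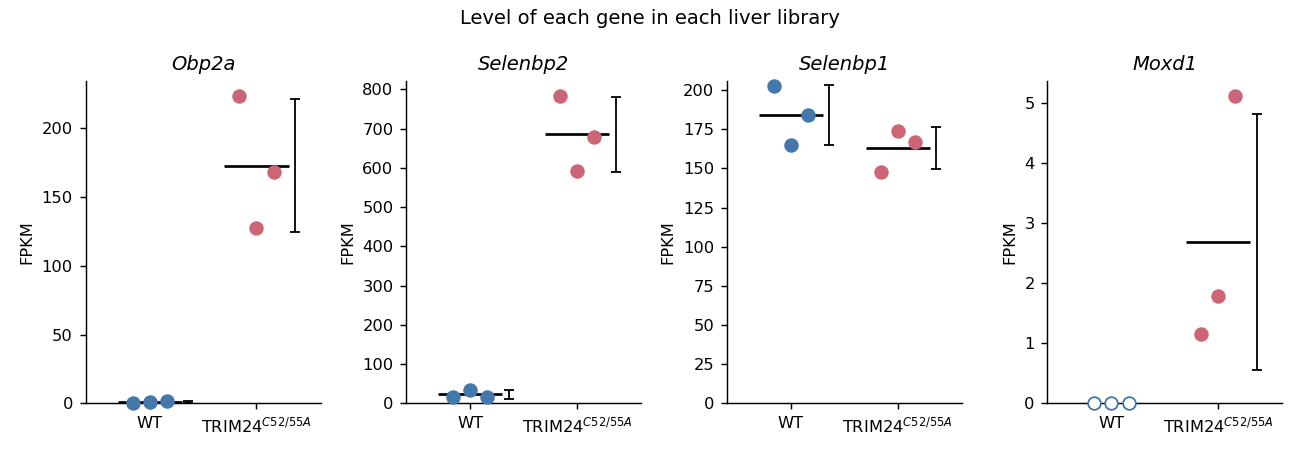
FPKM (linear axis from 0, one scale per gene) of Obp2a, Selenbp2, Selenbp1 and Moxd1 in each of 3 WT (blue) and 3 TRIM24C52/55A (red) liver libraries, replicates 1 to 3 from left to right; lines are means, bars are SD, and open circles at 0 are libraries in which Moxd1 was not listed. The groups are apart for Obp2a (at most 1.79 FPKM in WT, at least 127 in TRIM24C52/55A), Selenbp2 and Moxd1 and overlap for Selenbp1.

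Selenbp2 (ENSMUSG00000068877) lies on the plus strand at chr3:94693556-94704413, with 7 annotated transcripts, the first of 1719 bases in 12 exons. It was moderately expressed in WT liver and far more abundant in TRIM24C52/55A livers. The WT libraries held 17.1, 34.9 and 15.5 FPKM and the TRIM24C52/55A libraries 783, 593 and 680 FPKM. WT replicate 2 was the highest WT library, yet it was far below all 3 knock-in libraries. The means were 22.5 ± 10.8 FPKM in WT and 685 ± 94.9 FPKM in TRIM24C52/55A livers (SD, n = 3 each), a ratio of 30.5. The log2 fold change was 4.95 (SE 0.27), rank 3 of 12225, between Cfap53 and Hsd3b5, a male-biased steroid dehydrogenase gene at 4.31. By mean level Selenbp2 moved from rank 2519 in WT to rank 118 in TRIM24C52/55A livers. Without TRIM24C52/55A replicate 2 the log2 fold change was 5.05.

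Selenbp1 (ENSMUSG00000068874) lies on the plus strand at chr3:94933056-94944758, with 5 annotated transcripts, the first of 1712 bases in 12 exons. It was abundant in both genotypes. The WT libraries held 203, 165 and 184 FPKM and the TRIM24C52/55A libraries 148, 174 and 167 FPKM. The ranges overlapped, with WT replicate 2 below TRIM24C52/55A replicates 2 and 3. The means were 184 ± 19.1 and 163 ± 13.5 FPKM (SD, n = 3 each), and the fitted log2 fold change was -0.17 (SE 0.10), against a median of -0.08 over all genes tested. The mean level ranked 424 in WT and 435 in TRIM24C52/55A livers. It sat between Afg3l1 and Klc4 at rank 8451 of 12225 by log2 fold change. Selenbp1 was the steadiest of the 4 genes, with a coefficient of variation of 10.4% in WT and 8.29% in TRIM24C52/55A livers, where Selenbp2 varied by 47.9% and 13.9%.

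The larger share of the pair passed from Selenbp1 in WT to Selenbp2 in TRIM24C52/55A livers. In WT livers Selenbp2 made up 7.78%, 17.5% and 7.75% of the summed FPKM of the pair, and in TRIM24C52/55A livers 84.1%, 77.3% and 80.3%. The share was thus a small part of the pair in all 3 WT libraries and the larger part in all 3 knock-in libraries. The mean share was 11.0% ± 5.62 in WT and 80.6% ± 3.40 in TRIM24C52/55A livers (SD, n = 3 each), and the mean ratio of Selenbp2 to Selenbp1 was 0.127 and 4.26. The sum of both genes was 220, 200 and 200 FPKM in WT and 931, 767 and 847 FPKM in TRIM24C52/55A livers. Its means were 206 ± 11.6 and 848 ± 81.8 FPKM (SD, n = 3 each), a ratio of 4.11.

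The pair is close enough for fragments to be assigned to the wrong copy. The first annotated transcripts were identical at 1687 of 1712 aligned bases (98.5%). Of the 31-base stretches, 67.2% in Selenbp1 and 67.0% in Selenbp2 occurred in the other gene, and of the 100-base stretches 21.3% and 21.2%. How the quantification split fragments between the copies is not given in the sources used here. If each shared fragment was counted once, the sum does not depend on the split. The low WT level of Selenbp2 and the level of Selenbp1 are then less certain than the sum. The genes are 228.643 kb apart on chromosome 3, with 3 tested genes between them.

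**Figure D2:**
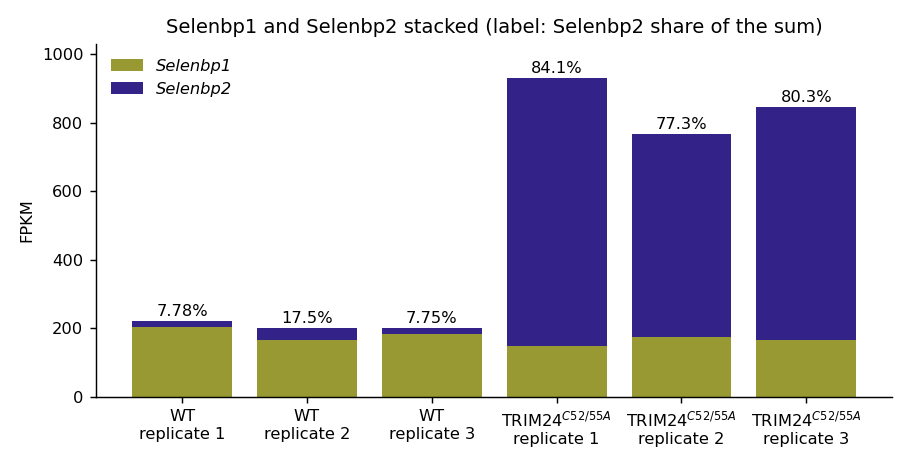
FPKM of Selenbp1 (olive) and Selenbp2 (dark blue) stacked for each of the 6 liver libraries, with the share of Selenbp2 in the sum, in percent, above each bar. The olive part stays between 148 and 203 FPKM in all 6 libraries, and the blue part is 7.75% to 17.5% of the bar in WT and 77.3% to 84.1% in TRIM24C52/55A livers.

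Moxd1 (ENSMUSG00000020000) lies on the plus strand at chr10:24223517-24302790, with 2 annotated transcripts, the first of 3090 bases in 12 exons. It was listed in none of the 3 WT libraries and in all 3 TRIM24C52/55A libraries, at 1.15, 1.79 and 5.12 FPKM. The tables hold no explicit 0, so for Moxd1 in WT livers a failed estimate cannot be told apart from an absence of fragments. The knock-in values are low and uneven, replicate 3 being well above the other 2, with a mean of 2.69 ± 2.13 FPKM (SD, n = 3) and a coefficient of variation of 79.2%. They correspond to an estimated 56, 89 and 248 fragments, and 1 fragment would be worth about 0.0199 FPKM in WT replicate 1. No fold is given against a gene that WT files do not list. Without TRIM24C52/55A replicate 3 the mean was 1.47 FPKM, and without replicate 2 it was 3.13 FPKM. Its fitted place by log2 fold change was 35, between Bcl6 (1.75) and Egfr (1.70), but the place depends on the pseudocount, being 7 with a pseudocount of 0.1, and on 1 library, being 59 without TRIM24C52/55A replicate 3. No 31-base stretch of Moxd1 occurred in another gene's transcripts.

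**Figure D3:**
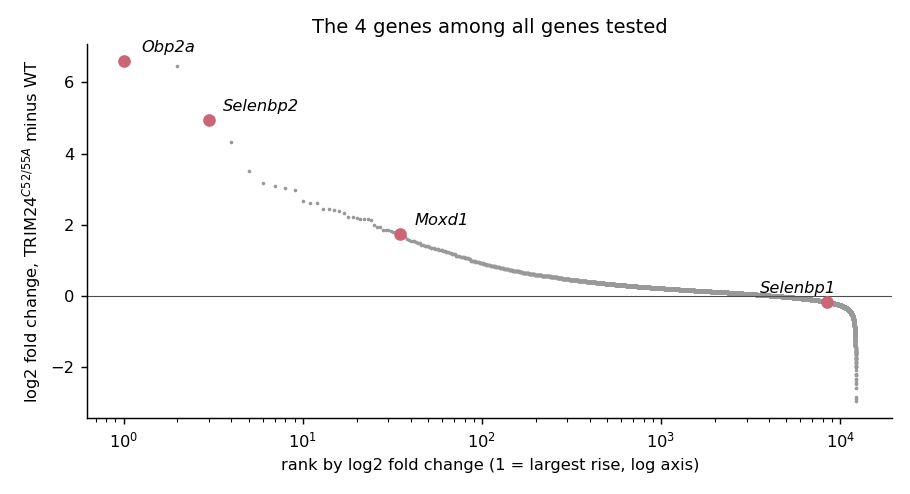
Log2 fold change on the log2(FPKM + 1) scale (TRIM24C52/55A minus WT) of each of the 12225 genes tested (grey) against its rank (log axis, 1 is the largest rise), with the 4 genes in red. Obp2a and Selenbp2 are at ranks 1 and 3 and Selenbp1 at rank 8451; the height of Moxd1 (rank 35) is set by the pseudocount of 1, since no WT library lists it.

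Among the TRIM24C52/55A mice, Obp2a and Selenbp2 had the same order, replicate 1 highest and replicate 2 lowest. Moxd1 had replicate 3 highest and replicate 1 lowest, and Selenbp1 replicate 2 highest and replicate 1 lowest. With 3 mice these orders are values and no more. Over the 6 libraries on the log2(FPKM + 1) scale, Pearson's r was 0.98 between Obp2a and Selenbp2, and 0.87 between each of them and Moxd1. For Selenbp1 it was -0.67 with Obp2a, -0.70 with Selenbp2 and -0.43 with Moxd1. These are descriptions over libraries that form a group per genotype, so that r mostly reflects the gap between the groups.

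The tested genes whose pattern over the 6 libraries was most like that of each gene were found by the same r. For Obp2a they included Cyp4v3 (0.995), a fatty acid hydroxylase gene, C1galt1c1 (0.994), a chaperone gene of O-glycan synthesis, Mbd1 (0.991), a methyl-CpG-binding protein gene, and Cfap53 (0.989). Their log2 fold changes ran from 0.10 for C1galt1c1, which differed little between genotypes, to 6.47 for Cfap53, so a high r does not mean a difference of like size. For Selenbp2 they were Mup21 (0.997), a major urinary protein gene, Serpina1e (0.994), an alpha-1-antitrypsin gene, Cyp4a12a (0.992), a male-biased fatty acid hydroxylase gene, Cd4 (0.991) and Lifr (0.991), the receptor of leukaemia inhibitory factor. Their log2 fold changes were 1.11 to 3.10, a gap between genotypes that a likeness to Selenbp2 brings with it. For Moxd1 the closest was Eif4ebp3 (0.995), a translation repressor gene at 4.96, 6.11 and 5.20 FPKM in WT and 11.1, 13.4 and 27.2 FPKM in TRIM24C52/55A livers, which also had its highest value in replicate 3. Adcy9, Kdm3b and Slc25a34, also among its 5 closest, had log2 fold changes of 0.12 to 0.31. For Selenbp1 they were Fam83a, Nlrc5, Lrrc14, Lamb2 and Atad3a, with r of 0.980 to 0.997 and log2 fold changes between -0.47 and -0.11.

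The genes related to the 4 were read from the fit across all 12225 genes (limma on log2(FPKM + 1), Benjamini-Hochberg adjustment), none of the 4 being counted. Over all genes tested, 944 (7.72%) had an adjusted p under 0.05, of which 200 (1.64%) were higher and 744 (6.09%) lower in TRIM24C52/55A livers. Scaling moved that split to 249 higher and 411 lower with median-of-ratios factors, and to 255 and 378 with quantile normalization. In bulk liver, fewer cells of a type and less RNA per cell cannot be told apart.

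The lipocalins, the family of Obp2a, were read in 2 lists, the major urinary proteins apart from the others. Of 26 lipocalin genes other than these, 13 were listed and 8 tested, of which 0 rose and 2 fell (median log2 fold change -0.18). The 2 that fell are acute-phase genes. Lcn2, whose protein binds bacterial iron carriers, was at 12.0 ± 4.53 FPKM in WT and 2.26 ± 0.565 FPKM in TRIM24C52/55A livers (SD, n = 3 each; log2 fold change -1.95, adjusted p = 0.0048 by limma). Orm2, an orosomucoid gene, was at 15.6 ± 1.99 and 3.49 ± 0.282 FPKM (log2 fold change -1.88, adjusted p = 0.000132 by limma). Both calls held under all 14 alternatives. Without TRIM24C52/55A replicate 3, 1 lipocalin rose and 2 fell. Rbp4, the retinol carrier, had a log2 fold change of -0.38 (adjusted p = 0.0535) and Ptgds, a prostaglandin synthase of this family, one of 0.73 (adjusted p = 0.106). At an unadjusted p under 0.05, 2 lipocalins were higher and 4 lower.

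The major urinary proteins, lipocalins that the liver secretes to carry pheromones, rose in TRIM24C52/55A livers. Of 21 genes tested 19 rose and 0 fell (median log2 fold change 1.35). Mup21 rose from 213 ± 35.7 to 1340.8 ± 92.0 FPKM (SD, n = 3 each; log2 fold change 2.66, adjusted p = 4e-05 by limma), and Mup1 from 981 ± 499 to 5381 ± 725 FPKM (log2 fold change 2.60, adjusted p = 0.00662 by limma). Their summed level was 37645 to 58989 FPKM in the WT libraries and 126455 to 137883 FPKM in the TRIM24C52/55A libraries. These genes are near-identical copies between which fragments may be split, so the sum is firmer than any member if each shared fragment was counted once.

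Of 25 genes tested for selenoproteins, selenium transport and selenocysteine insertion, 0 rose and 3 fell (median log2 fold change -0.07), and after quantile normalization 1 rose and 3 fell. Gpx4, the selenoenzyme that reduces lipid hydroperoxides, fell from 189 ± 12.1 to 115 ± 8.06 FPKM (SD, n = 3 each; log2 fold change -0.72, adjusted p = 0.00335 by limma), and did so under all 14 alternatives. Dio1, the liver deiodinase, had a log2 fold change of -0.50 (adjusted p = 0.0176), and Eefsec, the elongation factor for selenocysteine, one of -0.44 (adjusted p = 0.0286). Of the 14 alternatives, Dio1 passed the test in 10 and Eefsec in 6. Without WT replicate 1, WT replicate 3 or TRIM24C52/55A replicate 1, the count was 1 gene in place of 3. Selenop, the plasma selenium carrier and the most abundant gene of the list, was at 3704 ± 81.5 FPKM in WT and 3048 ± 66.1 FPKM in TRIM24C52/55A livers (adjusted p = 0.0646).

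The next list holds enzymes that handle what SELENBP1 uses and makes. Of 27 genes tested for methanethiol, sulfide, peroxide and formaldehyde metabolism, 0 rose and 3 fell (median log2 fold change -0.16), and after quantile normalization 1 rose and 1 fell. These were Suox, the sulfite oxidase gene (log2 fold change -0.53, adjusted p = 0.0228), Prdx3, a mitochondrial peroxiredoxin gene (-0.46, adjusted p = 0.0124), and Esd, the esterase that completes formaldehyde oxidation (-0.35, adjusted p = 0.0482). Suox passed the test in 8 of the 14 alternatives, Prdx3 in 11 and Esd in 4. The count was 0 without WT replicate 1, WT replicate 3 or TRIM24C52/55A replicate 1, and 7 without TRIM24C52/55A replicate 3. Cat, the catalase gene, was at 1222 ± 35.4 and 1162 ± 20.5 FPKM (adjusted p = 0.608), and Ethe1, a mitochondrial sulfur dioxygenase gene, at 26.1 ± 2.92 and 23.2 ± 1.70 FPKM (adjusted p = 0.387).

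Around Moxd1, its relatives Dbh and Moxd2 had no row in any library and were not analysed here. The same held for the catecholamine enzyme genes Th and Pnmt. Pam, the other copper-dependent monooxygenase on the list, was at 8.88 ± 0.773 and 8.66 ± 1.07 FPKM (SD, n = 3 each; adjusted p = 0.889 by limma). Of 15 genes tested for these enzymes, catecholamine metabolism and copper handling, 0 rose and 4 fell (median log2 fold change -0.07). These were the amine oxidase genes Maoa (log2 fold change -0.69, adjusted p = 0.0291) and Maob (-0.56, adjusted p = 0.0295), the copper chaperone gene Atox1 (-0.47, adjusted p = 0.0127) and Sod1, the copper-zinc superoxide dismutase gene (-0.31, adjusted p = 0.0357). Atox1 passed the test in 11 of the 14 alternatives, Maoa and Maob in 7 each and Sod1 in 4. The count was 0 without WT replicate 1, WT replicate 3 or TRIM24C52/55A replicate 1, 1 without WT replicate 2, 2 without TRIM24C52/55A replicate 3 and 2 with replicate numbers as a block.

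Genes that are higher in male than in female mouse liver rose together. Of 21 tested, 16 rose and 0 fell (median log2 fold change 1.43), Mup7 and Mup20 being counted here as well as among the major urinary proteins. Gstp1, a glutathione transferase gene, rose from 892 ± 42.4 to 4117 ± 313 FPKM (SD, n = 3 each; log2 fold change 2.20, adjusted p = 1.57e-05 by limma), and Serpina1e from 1004 ± 301 to 8542 ± 2040 FPKM (log2 fold change 3.10, adjusted p = 0.000386 by limma). Cyp4a12a had a log2 fold change of 1.65 (adjusted p = 0.00016) and Cyp7b1, an oxysterol hydroxylase gene, one of 1.94 (adjusted p = 0.00319). Hsd3b5 was at 2.79, 29.9 and 1.58 FPKM in WT replicates 1, 2 and 3, and at 134 ± 24.2 FPKM in TRIM24C52/55A livers (log2 fold change 4.31, adjusted p = 0.0176 by limma), a call lost without WT replicate 1, WT replicate 3 or TRIM24C52/55A replicate 1 and with no filter. In WT, replicate 2 was highest for Hsd3b5, for Serpina1e and for Selenbp2. The count was 10 without WT replicate 1 and 9 without TRIM24C52/55A replicate 1.

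Female-biased liver genes went the other way. Of 17 tested, 0 rose and 8 fell (median log2 fold change -1.03), and the count was 5 without WT replicate 3 or without TRIM24C52/55A replicate 1. Without TRIM24C52/55A replicate 2, the library with the adipocyte genes, 2 rose and 5 fell. Cyp17a1, a steroid hydroxylase gene, fell from 20.0 ± 4.17 to 1.75 ± 0.871 FPKM (SD, n = 3 each; log2 fold change -2.96, adjusted p = 0.000494 by limma). Cyp4a14, a fatty acid hydroxylase gene that peroxisome proliferators also induce, fell from 548 ± 160 to 116 ± 26.1 FPKM (log2 fold change -2.22, adjusted p = 0.00174 by limma). Not all sex-biased genes followed, since Cyp2c40 and Cyp2c69, both female-biased, had log2 fold changes of 0.47 and 0.56 (adjusted p = 0.205 and 0.14) and Slc15a5, male-biased, one of -0.16 (adjusted p = 0.679). None of the 4 Y-linked genes passed the test, with 1 at an unadjusted p under 0.05.

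The growth hormone pathway itself showed no call. Of 17 genes tested 0 passed limma's threshold, with 1 higher and 1 lower at an unadjusted p under 0.05 (median log2 fold change 0.04). Ghr, the receptor, was at 186 ± 11.5 and 188 ± 16.2 FPKM, Stat5b at 13.6 ± 0.700 and 15.4 ± 3.21 FPKM, and Igf1, the hormone the pathway induces, at 182 ± 25.5 and 192 ± 21.8 FPKM (SD, n = 3 each). Bcl6, a repressor that is itself male-biased, was at 28.7, 26.8 and 4.91 FPKM in TRIM24C52/55A replicates 1, 2 and 3 against 4.24 ± 1.84 FPKM in WT livers (adjusted p = 0.107 by limma). Cish, a feedback inhibitor induced by STAT5, was at 1.27, 0.939 and 19.8 FPKM in the same 3 libraries. Replicate 3, low for Bcl6 and high for Cish, is the library with the highest Moxd1, and the part of this in the Moxd1 level was not tested. Without replicate 3, Bcl6 passed the test (log2 fold change 2.51, adjusted p = 0.00174), and without replicate 2 Igfals did (0.51, adjusted p = 0.0403).

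**Figure D4:**
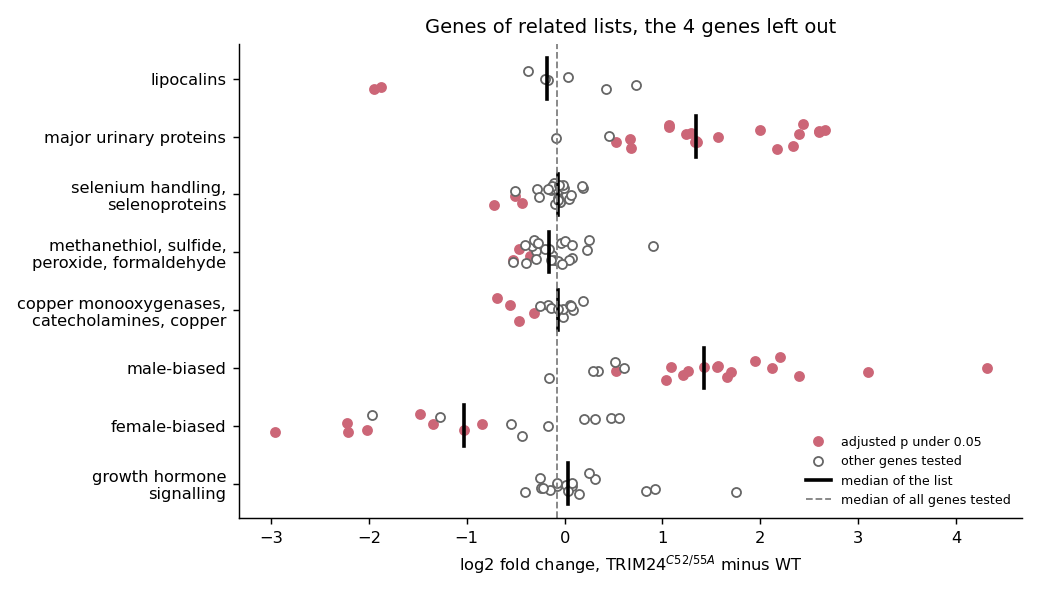
Log2 fold change on the log2(FPKM + 1) scale (TRIM24C52/55A minus WT) of each tested gene of 8 lists, 1 list per line, with genes at an adjusted p under 0.05 in red, other genes open, the median of each list as a black bar and the median of all genes (-0.08) as a dashed line. Major urinary proteins (median 1.35) and male-biased genes (1.43) lie to the right, female-biased genes (-1.03) to the left, and the other lists near the line.

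The genes next to the 4 on their chromosomes were also read from the fit. Of the 21 nearest tested genes 3 rose and 3 fell (median log2 fold change 0.01). The tables list Bmyc and A230005M16Rik in 1 shared interval of 3.867 kb that begins 2.523 kb after the end of Obp2a. Bmyc, a relative of the Myc transcription factor genes, rose from 4.58 ± 0.430 to 11.8 ± 5.17 FPKM (SD, n = 3 each; log2 fold change 1.12, adjusted p = 0.0291 by limma). A230005M16Rik, on the other strand, rose from 0.0948 ± 0.0865 to 1.03 ± 0.388 FPKM (log2 fold change 0.88, adjusted p = 0.0165 by limma). Whether the counting used strand is not given in the sources used here, so these 2 cannot be told apart. Both calls were lost when any of the 3 WT libraries was left out, and with no filter on low values. A230005M16Rik met the filter of 0.5 FPKM almost entirely through the knock-in libraries, being at or below 0.169 FPKM in WT. It was tested in 11 of the 14 alternatives. With the filter at 1 FPKM it was not tested, and 2 neighbours rose in place of 3. Camsap1, the next gene after Bmyc and A230005M16Rik, had a log2 fold change of 0.06 (adjusted p = 0.8).

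Before Selenbp2, BC021767 at 22.859 kb rose from 1.54 ± 0.289 to 2.88 ± 0.510 FPKM (SD, n = 3 each; log2 fold change 0.61, adjusted p = 0.0331 by limma), a call that was lost without any 1 library other than TRIM24C52/55A replicate 2, with replicate numbers as a block and with no filter. Tuft1, at 34.683 kb, was at 1.67 ± 0.482 and 3.81 ± 1.48 FPKM without overlap of the groups (log2 fold change 0.82, adjusted p = 0.0577). None of the 3 tested genes between the paralogs passed the test, Cgn, Pogz and Psmb4 having log2 fold changes of -0.05, -0.05 and -0.19. The same held for Rfx5, Gm15265 and Pi4kb after Selenbp1, at -0.09 to 0.12.

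Around Moxd1 the called genes fell. Vnn1, a pantetheinase gene 318.173 kb before it, went from 55.3 ± 10.2 to 14.6 ± 1.55 FPKM (SD, n = 3 each; log2 fold change -1.84, adjusted p = 0.000494 by limma), Vnn3 had a log2 fold change of -0.83 (adjusted p = 0.0124) and Enpp1, a nucleotide pyrophosphatase gene, one of -0.50 (adjusted p = 0.0262). The call for Vnn1 held under all 14 alternatives. Those for Vnn3 and Enpp1 were each lost without WT replicate 1, WT replicate 3 or TRIM24C52/55A replicate 1, and that for Enpp1 also without WT replicate 2 or TRIM24C52/55A replicate 3, with median-of-ratios factors and with replicate numbers as a block. With no filter both were lost. Stx7, the nearest gene at 34.557 kb, had a log2 fold change of -0.19 (adjusted p = 0.316). Over all neighbours the count was 1 without WT replicate 1 or WT replicate 3, 2 without WT replicate 2, and 3 without TRIM24C52/55A replicate 1 or replicate 3.

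**Figure D5:**
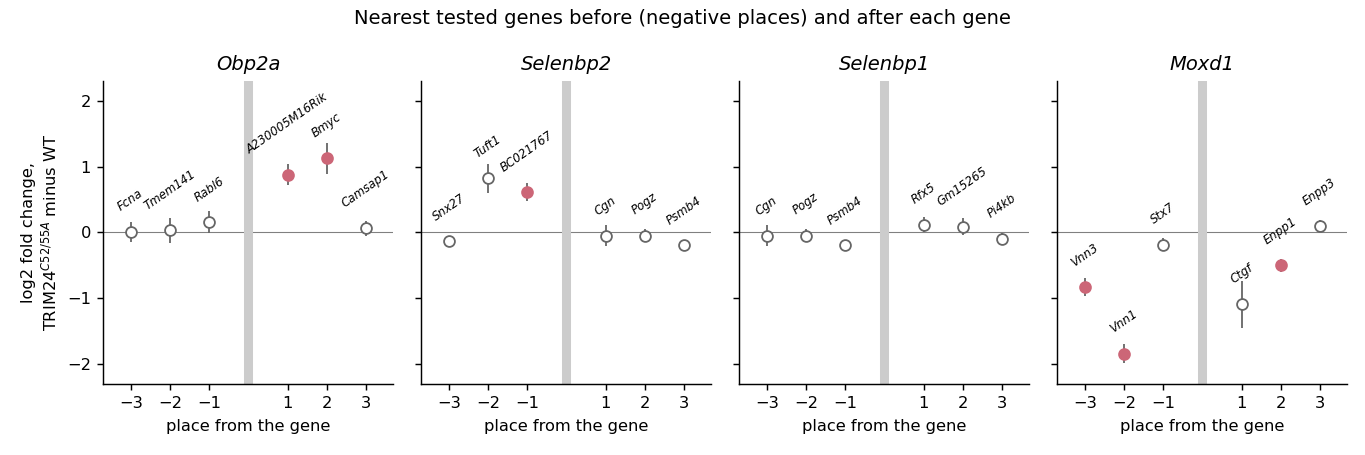
Log2 fold change on the log2(FPKM + 1) scale (TRIM24C52/55A minus WT, with its standard error) of the 3 nearest tested genes before (negative places) and after each of Obp2a, Selenbp2, Selenbp1 and Moxd1, in order of place and not to distance; red marks an adjusted p under 0.05. Bmyc (1.12) and A230005M16Rik (0.88) beside Obp2a are up, Vnn1 (-1.84) near Moxd1 is down, and the genes around Selenbp1 lie near 0.

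Markers of other cell types were read beside the 4 genes, and their part in the levels above was not tested. Of 12 macrophage markers tested 0 passed limma's threshold (2 lower at an unadjusted p under 0.05). All 12 had a log2 fold change below 0 (median -0.28, against -0.08 over all genes tested), and their summed level was 275 to 343 FPKM in WT and 225 to 324 FPKM in TRIM24C52/55A libraries. For 10 stellate cell markers the count was 0 (1 higher and 3 lower at an unadjusted p under 0.05; summed level 154 to 165 and 141 to 176 FPKM), and for 5 cholangiocyte markers 0 (1 higher and 2 lower; 35.1 to 59.9 and 27.4 to 44.0 FPKM). Of 10 endothelial markers Lyve1 fell, from 6.21 ± 1.89 to 2.07 ± 0.973 FPKM (SD, n = 3 each; adjusted p = 0.0281 by limma), and the summed level was 150 to 159 and 143 to 149 FPKM. Of 8 hepatocyte markers tested, Cps1, a urea cycle gene, rose (log2 fold change 0.63, adjusted p = 0.0281) and Cyp2e1, an ethanol-inducible cytochrome gene, fell (-0.54, adjusted p = 0.0318). Of 10 adipocyte markers tested, Adrb3 rose (log2 fold change 1.86, adjusted p = 0.000716) and Cidec fell (-2.36, adjusted p = 0.0286). The summed level of that list was 1927 to 2301 and 1526 to 2161 FPKM. Nearly all of it was Car3, at 1885 to 2259 FPKM in WT and 1436 to 2135 FPKM in TRIM24C52/55A livers. The sum was lowest in TRIM24C52/55A replicate 2, so it does not follow Adipoq, Plin1 and Lep. In TRIM24C52/55A replicate 2, the library that held Adipoq, Plin1 and Lep, Obp2a and Selenbp2 had their lowest values of the genotype and Moxd1 its middle value.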

How the data were processed

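Liver RNA was extracted with Trizol and sequenced on Illumina libraries, 1 per mouse. For each mouse the authors deposited FPKM values per gene. The submitters' processing notes name GRCm38, bcl2fastq, Salmon 0.14.0 and DESeq2 1.30.0 with no roles. The step that made the FPKM, and whether it used strand, is not given in the sources used here. A gene without a row in a library was taken as 0. FPKM hold no read totals. Depth was estimated from the steps between low values, as a median over a fixed range that was the same for every library.

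Libraries were grouped by genotype label. Genes whose FPKM averaged at least 0.5 over the libraries were fitted as log2(FPKM + 1) by limma 3.58.1 (lmFit, eBayes with trend) under R 4.3.3, with Benjamini-Hochberg adjustment over all genes tested and a threshold of 0.05. The adjusted p sets the difference between the groups against the spread among these mice, with each gene's variance moderated by those of all genes. The fit was tested on simulated data. Sequences were aligned with Biopython 1.88, plots drawn with matplotlib 3.10.9, and tables handled with pandas 2.3.3 under Python 3.11.15. Shared stretches were counted in GENCODE M21 transcripts, and the promoters came from RefSeq.

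The 4 genes and all lists were chosen with earlier results of these data known. The genes named are the 4, their neighbours by rank and by position, the 5 most alike over the 6 libraries (clone-based names left out), up to 10 per list with called genes first, Trim24, sex chromosome genes and markers. Some genes that this rule names are not reported here. Alternatives were another pseudocount (0.1), other filters (none, or an average of 1 FPKM), TPM, median-of-ratios and quantile scaling, eBayes without a trend, a replicate block and each replicate left out.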

Additional observations from a re-analysis of the deposited data

How the results depend on the processing

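Of the 14 alternatives, none reversed the log2 fold change of Obp2a, Selenbp2, Selenbp1 or the sum of the pair. The other filters, eBayes without a trend and the replicate block leave these fold changes as they are. Since Obp2a and Selenbp2 were chosen by this contrast, their steady sign is a description only. Obp2a was at 7.97 with a pseudocount of 0.1, and 6.27 to 6.94 when 1 replicate was left out. Selenbp2 was at 4.74 to 5.30 and Selenbp1 at -0.25 to -0.10 when 1 was left out, and Selenbp1 at -0.024 after quantile normalization. The summed pair was at 2.18 after quantile normalization and 1.96 to 2.10 without 1 replicate, against 2.03. The mean of Moxd1 in TRIM24C52/55A livers was 1.47 to 3.45 FPKM. The median over all genes was between -0.14 (TPM) and 0.01 (quantile normalization).

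Counts of called genes moved more. The count over all genes, 944, was 347 with no filter, 1555 as TPM (197 higher and 1358 lower), and 294 to 1280 when 1 replicate was left out. With no filter the counts were 12 major urinary proteins, 8 male-biased and 5 female-biased genes, and 1 gene each for selenium, methanethiol, copper and the neighbours. Copper genes called were 2 with median-of-ratios factors and 2 after quantile normalization. Methanethiol genes called were 1 with median-of-ratios factors, 6 with a mean of at least 1 FPKM and 11 as TPM. Growth hormone genes called were 1 as TPM. When 1 replicate was left out, the counts were 2 to 3 lipocalins, 14 to 19 major urinary proteins, 1 to 3 selenium, 0 to 7 methanethiol, 0 to 4 copper, 9 to 17 male-biased, 5 to 8 female-biased and 0 to 1 growth hormone genes, and 1 to 6 neighbours. The cause was not tested.

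The replicate numbers are shared by the genotypes but did not pair the mice: same-numbered libraries deviated from their group means with correlations of -0.12, -0.10 and 0.003. With the numbers as a replicate block the count over all genes was 578 and that of copper genes 2. With 1 fragment worth about 0.0826 FPKM for Obp2a, its WT level is limited by depth.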
